A study of Mus musculus with 6 samples.

Results

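The interferon-stimulated genes described here were 41 genes grouped under that name. The group holds genes that cells switch on when interferon reaches them, and also factors such as Irf3 that act before interferon is made. All 41 were chosen by name, and every non-control probe to which the deposited annotation gave 1 of these symbols was used. These were 52 of 55681 probes and 41 of 24239 genes with a symbol. Expression was measured in the liver of B6C3F1 male mice, a hybrid laboratory strain, at an age of 7 weeks. The control group received corn oil by mouth for 5 days, and the TCE group received trichloroethylene (TCE), an industrial solvent, in corn oil at 1000 mg/kg body weight per day for the same 5 days. RNA of 3 mice per group was hybridised, 1 mouse to an Agilent 1-colour array, without pooling. Mice are numbered by the replicate number in the deposited source label; the sample titles and the names of the scanner files carry other numbers that differ from each other, so a number here only names a mouse within its group. Whole liver was used, so fewer cells of a type and less RNA per cell cannot be told apart in any value below. The hepatocyte markers Alb, Apoa1, Ttr, Hnf4a, Tat and Serpina1a were well above background on all 6 arrays, and 0 of the 6 passed the threshold given below. The arrays had between 23538 and 24968 probes well above background and 0 saturated spots. Control mouse 1 was on slide 1, and the other 5 mice, with all TCE mice among them, were on slide 2.

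Interferons are cytokines that infected or alarmed cells release. Their receptors activate Janus kinases, which phosphorylate STAT proteins; Stat2 and Irf9 belong to a complex that enters the nucleus and binds the interferon-stimulated response element in the promoters of target genes. The targets include sensors of viral nucleic acid, transcription factors that extend the response, enzymes and binding proteins that block viral RNA, and GTPases that attack vacuoles holding parasites or bacteria, and in the liver both hepatocytes and resident immune cells can express them.

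All expression values are log2 signals after quantile normalization, and a change is the TCE mean minus the control mean on that scale. A gene was called detected if its probe was well above background in all mice of at least 1 group, and it passed the threshold at a limma adjusted p of at most 0.05 with at least a 2-fold change. Of the 41 genes, 38 were detected, and each of the 38 was well above background on all 6 arrays. Oas1g and Oas3, which encode 2'-5' oligoadenylate synthetases, were well above background on 0 of the 6 arrays. Mx1, an antiviral GTPase, was well above background in 2 control mice and 1 TCE mouse, so these 3 genes were not tested.

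Between TCE and control mice 1 interferon-stimulated gene was past the threshold, and this call was lost without any 1 of the 6 mice. By limma, 0 of the 38 detected genes were up-regulated and 1, Irf5, was down-regulated, against 1.30% up-regulated, 0.429% down-regulated and 1.73% in either direction among the 13284 detected genes of the array. With no limit on the fold change the members' counts were the same, 0 and 1, against 1.80% and 0.587% of all genes. At an unadjusted limma p under 0.05, 2 members (Bst2 and Oas2) had a higher and 4 (Irf5, Ifi47, Rsad2 and Trim21) a lower expression in TCE mice, or 5.26% and 10.5%, against 12.0% and 7.11% of all genes. The methods' t-test at its own threshold, without adjustment, gave 0 higher and 1 lower, against 2.15% and 0.949% of all genes, and after Benjamini-Hochberg adjustment 0 and 0, against 0.128% and 0.0226%. The groups did not overlap in 3 members that were higher (7.89%) and 4 that were lower (10.5%) in TCE mice, against 17.1% and 10.8% of all genes. By the fitted change alone 22 members were higher and 16 lower, where 53.1% of all genes were higher and 46.9% lower. The median change of the members was 0.058, with a range from -1.29 to 0.59, and the median of all genes was 0.021.

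The TCE mice differed from each other in these genes. TCE mouse 1 had the highest signal of the 6 mice in 25 of the 38 detected members (65.8%), against 16.8% of the 13279 detected genes that had a value in every mouse. TCE mouse 2 had the lowest signal in 21 members (55.3%), against 15.0% of all genes. Both held at once in 15 members (39.5%), against 2.61% of all genes. In 18 members (47.4%; all genes 3.98%) TCE mouse 1 lay above all control mice while TCE mouse 2 lay below all of them. The median difference of the members from their control mean was 0.47 in TCE mouse 1, -0.29 in TCE mouse 2 and -0.19 in TCE mouse 3, where the medians of all genes were 0.023, 0.081 and 0.0051. TCE mouse 1 exceeded TCE mouse 2 in 34 members (89.5%), by a median of 0.65 and a range from -0.79 to 1.88, and in 42.2% of all genes, with a median of -0.060. This ordering was noticed after the values were seen, and it was given no test.

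**Figure D1:**
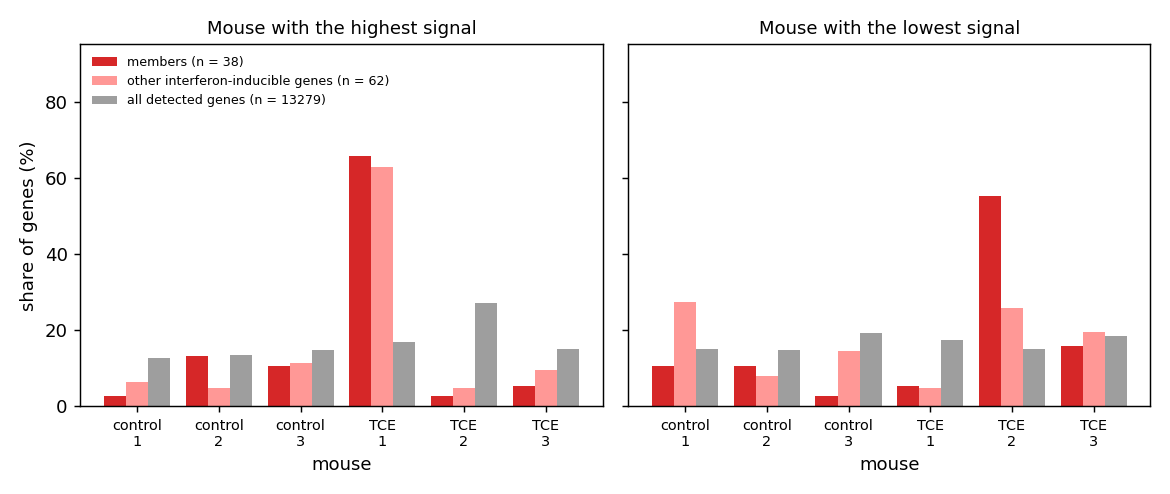
Share of genes (vertical axis, %) in which each mouse (horizontal axis) had the highest signal (left) or the lowest signal (right) of the 6 mice, for the 38 detected members, 62 other interferon-inducible genes and 13279 detected genes. TCE mouse 1 was highest in 65.8% of members and TCE mouse 2 lowest in 55.3%, against 16.8% and 15.0% of all genes.

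The spread within a group followed the same course. The median SD of a member was 0.15 among control mice and 0.42 among TCE mice (n = 3 each), and that of all genes was 0.15 and 0.19. The SD was larger in TCE mice than in control mice in 30 of 38 members (78.9%; all genes 59.2%). In 31 members the SD among TCE mice was above the all-gene median, and in 13 it was above the 90th percentile of all genes. Among control mice the corresponding counts were 20 and 4. Without TCE mouse 1 the median change of the members was -0.25 (all genes 0.032), and without TCE mouse 2 it was 0.19 (all genes 0.011). The sign of the median thus depended on which TCE mouse was left out, and the 3 TCE arrays shared 1 slide. TCE mice 1 to 3 had 24968, 23573 and 23649 probes well above background, with median unnormalized log2 signals of 4.32, 3.93 and 4.54. Control mice 1 to 3 had 23538, 24934 and 24126 such probes, with medians of 4.33, 4.02 and 3.91. The part of these differences in the ordering was not tested.

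**Figure D2:**
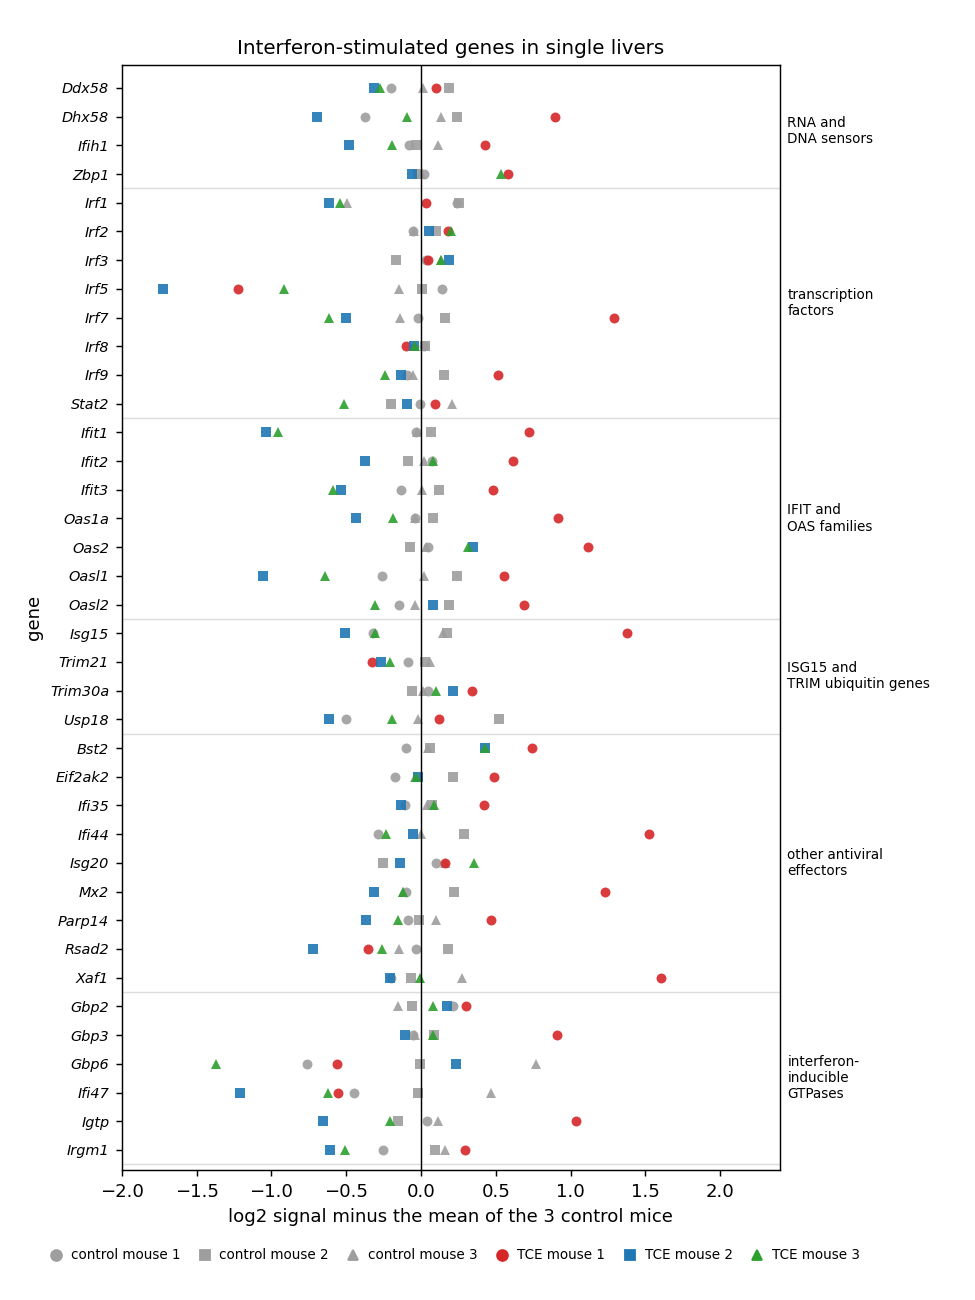
Log2 signal of each mouse minus the mean of the 3 control mice (horizontal axis) for the 38 detected members (vertical axis), grouped by role; grey points are control mice, red, blue and green points are TCE mice 1, 2 and 3. Red points lie to the right in most rows (highest of 6 mice in 25 genes), blue points to the left (lowest in 21), and Irf5 is the gene past the threshold (change -1.29).

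Of the sensors of viral nucleic acid, 4 of 4 were detected and 0 passed the threshold by limma. At an unadjusted p under 0.05 there were 0, against 12.0% higher and 7.11% lower among all genes. TCE mouse 2 was the lowest of the 6 mice in all 4 sensors (all genes 15.0%), and TCE mouse 1 was the highest in 3 (all genes 16.8%). Ifih1, a helicase that binds long double-stranded RNA, had log2 signals of 10.47, 10.51 and 10.67 in control mice 1 to 3 and 10.97, 10.07 and 10.36 in TCE mice 1 to 3. One TCE mouse was above all controls and the other 2 were below them, and the change was -0.083 (SE 0.24, limma adjusted p = 0.891). Without TCE mouse 2 it was 0.12. Ddx58, which encodes RIG-I, the sensor of short RNA with a 5' triphosphate, had signals of 10.84, 11.24 and 11.06 in control mice and 11.15, 10.73 and 10.77 in TCE mice. TCE mouse 1 lay within the control range and the other TCE mice lay below it. The change of Ddx58 was -0.16 (SE 0.17, limma adjusted p = 0.663), and a second probe gave 0.23 (SE 0.26), so the probes differed in sign.

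Dhx58, a helicase related to both and chosen here after its values were seen, had signals of 7.81, 8.42 and 8.32 in control mice and 9.08, 7.48 and 8.09 in TCE mice. Its mean was nearly the same in both groups, with a change of 0.036, while TCE mice 1 and 2 lay on opposite sides of all controls. Zbp1, a sensor of nucleic acid in the Z form, was likewise chosen after its values were seen. Its brighter probe had signals of 9.26, 9.23 and 9.25 in control mice and 9.83, 9.19 and 9.78 in TCE mice. TCE mice 1 and 3 were above the controls and TCE mouse 2 was just below them (change 0.35, SE 0.19, limma adjusted p = 0.392). A second Zbp1 probe, well above background in 2 control mice and all 3 TCE mice, gave signals of 4.39, 5.51 and 5.30 in control mice and 7.65, 5.52 and 6.43 in TCE mice. These groups did not overlap, but TCE mouse 2 was level with control mouse 2, and the change of 1.46 (SE 0.57) had a limma adjusted p of 0.253. The probe passed the detection filter through the TCE group alone, so the filter itself favoured a higher signal there. Not all control signals were well above background, so the size of this change is not exact and nothing is drawn from it.

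Of the transcription factors, 8 of 8 were detected, 0 were up-regulated and 1 was down-regulated, against 1.30% and 0.429% of all genes. Irf5 carries signals from Toll-like receptors to cytokine and interferon genes in macrophages, dendritic cells and B cells. The array annotation places its probe on mouse build mm9 at chr6:29486901-29486960. Irf5 had log2 signals of 9.19, 9.05 and 8.90 in control mice and 7.82, 7.32 and 8.13 in TCE mice. All 3 TCE mice were below all 3 control mice, and TCE mouse 2 was again the lowest. Expression fell by 1.29 on the log2 scale (SE 0.22, 95% confidence interval -1.82 to -0.76), or 2.44-fold, with a limma adjusted p of 0.0465. The exact two-sided permutation p was 0.1, the smallest that 3 mice against 3 allow.

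The Irf5 call lay at the edge of the threshold. Without any 1 of the 6 mice, be it control mouse 1, 2 or 3 or TCE mouse 1, 2 or 3, the change was between -1.47 and -1.07, and the limma adjusted p was between 0.0505 and 0.163, so the call was lost each time. With the slide as a block the change was -1.22 (limma adjusted p = 0.138). Within slide 2 alone, that is without control mouse 1, it was -1.22 (limma adjusted p = 0.146).

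Markers of cells that express Irf5 were measured in the same livers. Of the 8 markers of Kupffer cells or macrophages, 8 were detected, 7 were lower in TCE mice by the fitted change, and 0 passed the threshold. Their summed linear signal was 28872, 28223 and 25425 in control mice and 23880, 24529 and 30472 in TCE mice, with Cd5l the brightest. These sums overlapped between the groups, and TCE mouse 3 had the highest of all. Cd22, a receptor of B cells, had log2 signals of 8.21, 8.39 and 8.67 in control mice and 6.24, 7.09 and 8.31 in TCE mice. TCE mice 1 and 2 were below all controls and TCE mouse 3 was not (change -1.21, SE 0.50, limma adjusted p = 0.274). Cd79a, a part of the B cell receptor, has 2 probes that the annotation places on different chromosomes. The probe on chromosome 7 was well above background on 0 arrays, and the one on chromosome 12 had a change of 0.40 with overlapping groups, so no level of Cd79a is given. Of the 5 markers of plasmacytoid dendritic cells 2 were detected, and Spib was well above background on 0 arrays. The markers did not agree in direction. The sum of these cells' markers was 22811, 16954 and 21099 in control mice and 22322, 15492 and 22847 in TCE mice, nearly all of it from the brighter Siglech probe. A second Siglech probe had log2 signals of 9.72, 9.43 and 9.86 in control mice and 8.45, 8.67 and 8.81 in TCE mice. Here the groups did not overlap, and the change of -1.03 (SE 0.16, limma adjusted p = 0.0374) passed the threshold, so the Siglech probes differed. Klk1, the other detected marker, had log2 signals of 7.28, 7.41 and 7.00 in control mice and 8.64, 8.04 and 8.88 in TCE mice, with every TCE mouse above the controls (change 1.29, SE 0.24, limma adjusted p = 0.0601). Cox6a2, well above background in 0 control mice and 2 TCE mice and so not tested, had signals of 4.67, 4.93 and 4.49 against 5.69, 5.17 and 5.76. The part of these cell types in the Irf5 change was not tested.

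The other transcription factors had changes between -0.38 (Irf1) and 0.14 (Irf2). Irf3, the factor that starts interferon production once a sensor has fired, had signals of 13.19, 12.99 and 13.29 in control mice and 13.20, 13.34 and 13.29 in TCE mice. The groups overlapped (change 0.12, SE 0.13, limma adjusted p = 0.650), and here TCE mouse 2 was the highest. With 1 mouse left out it was 0.040 to 0.19. Stat2, a part of the complex that binds the response element, had signals of 12.03, 11.84 and 12.25 in control mice and 12.13, 11.94 and 11.52 in TCE mice. TCE mouse 3 was the lowest and the other 2 lay within the control range (change -0.17, SE 0.20, limma adjusted p = 0.691). Without TCE mouse 3 it was -0.00098, and without TCE mouse 1 -0.31.

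Irf7, itself an interferon target and the factor that amplifies the response, was chosen after its values were seen. It had signals of 8.06, 8.24 and 7.94 in control mice and 9.37, 7.57 and 7.47 in TCE mice. TCE mouse 1 was far above all controls and the other TCE mice were below them, so that the change of 0.059 had an SE of 0.50. Irf9 had the same order in TCE mice, with differences from the control mean of 0.51, -0.13 and -0.24 (change 0.047). Irf8, a factor of myeloid cells, did not show it, with differences of -0.10, -0.049 and -0.037.

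Of the 9 genes of the IFIT and OAS families, 7 were detected and 0 passed the threshold by limma. At an unadjusted p under 0.05, 1 was higher (14.3%) and 0 were lower, against 12.0% and 7.11% of all genes. IFIT proteins bind foreign RNA and stop its translation, and OAS enzymes make the 2'-5' oligoadenylates that switch on RNase L. TCE mouse 1 was the highest of the 6 mice in 7 of 7 (all genes 16.8%), by a median of 0.69 over the control mean. TCE mouse 2 was the lowest in 4 (all genes 15.0%). The median SD of the 7 genes was 0.081 among control mice and 0.60 among TCE mice.

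Oas1a had signals of 10.16, 10.28 and 10.16 in control mice and 11.11, 9.76 and 10.01 in TCE mice. The controls lay close together between the single high TCE mouse and the 2 low ones, and the change was 0.10 (SE 0.34, limma adjusted p = 0.912). Without TCE mouse 1 it was -0.31. Oasl1, a related protein that restrains translation of Irf7, had signals of 10.22, 10.73 and 10.50 in control mice and 11.04, 9.42 and 9.84 in TCE mice. Again TCE mouse 1 was above and the other TCE mice were below every control (change -0.38, SE 0.41, limma adjusted p = 0.672). It was -0.85 without TCE mouse 1 and -0.043 without TCE mouse 2. Oas2 had signals of 7.67, 7.55 and 7.65 in control mice and 8.74, 7.97 and 7.93 in TCE mice. All TCE mice were above all controls, TCE mouse 1 most of all, and the change was 0.59 (SE 0.23, limma adjusted p = 0.256). Without TCE mouse 1 it was 0.33. Ifit1, chosen after its values were seen, had signals of 6.77, 6.87 and 6.78 in control mice and 7.53, 5.77 and 5.85 in TCE mice. The controls lay close together, and the TCE mice lay well above or well below them (change -0.42, SE 0.46). Ifit2, Ifit3 and Oasl2 had changes of 0.11, -0.21 and 0.15, with overlapping groups.

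Isg15, a ubiquitin-like protein that is joined to other proteins during the response, showed the widest gap between TCE mice 1 and 2 among the detected members, 1.88. It had signals of 11.19, 11.69 and 11.66 in control mice and 12.89, 11.01 and 11.20 in TCE mice. TCE mouse 1 stood above every control, TCE mouse 2 below every control and TCE mouse 3 at the level of control mouse 1. The change was 0.19 (SE 0.50, limma adjusted p = 0.881), and without TCE mouse 1 it was -0.41. A second Isg15 probe had signals of 6.85, 7.65 and 5.24 in control mice and 8.56, 6.40 and 6.95 in TCE mice. It had the same single high mouse and a low control mouse 3 (change 0.73, SE 0.77).

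Usp18, the protease that removes Isg15 and dampens receptor signalling, had signals of 8.89, 9.91 and 9.37 in control mice and 9.52, 8.78 and 9.20 in TCE mice. The controls were themselves widely spread, and only TCE mouse 2 lay outside them (change -0.23, SE 0.30, limma adjusted p = 0.737). Trim21, a ubiquitin ligase that binds antibody inside the cell, had signals of 8.24, 8.36 and 8.39 in control mice and 8.00, 8.06 and 8.12 in TCE mice. Here the TCE mice lay close together, all below the controls, and the change of -0.27 (SE 0.11) did not pass after adjustment (limma adjusted p = 0.271). Trim30a, named because its groups did not overlap, had signals of 6.61, 6.50 and 6.57 in control mice and 6.90, 6.77 and 6.66 in TCE mice. All TCE mice were higher, by a mean of 0.22 (SE 0.12, limma adjusted p = 0.386).

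Of the 10 other antiviral effectors, 9 were detected and 0 passed the threshold by limma. At an unadjusted p under 0.05, 1 was higher and 1 lower (11.1% each), against 12.0% and 7.11% of all genes. TCE mouse 1 was the highest in 7 of the 9 effectors (all genes 16.8%) and TCE mouse 2 the lowest in 5 (all genes 15.0%). Bst2, or tetherin, which holds budding virus on the cell surface, had signals of 13.94, 14.10 and 14.08 in control mice and 14.78, 14.47 and 14.47 in TCE mice. All TCE mice were above all controls, and the change of 0.53 (SE 0.13) had a limma adjusted p of 0.121, the lowest among members with a positive change. Bst2 also marks plasmacytoid dendritic cells, of which 1 Siglech probe overlapped between the groups and another was lower in all TCE mice, while Klk1 and Cox6a2 were higher in all of them; the part of these cells in the Bst2 values was not tested. Rsad2, or viperin, an enzyme that makes a chain-terminating nucleotide, had signals of 8.06, 8.27 and 7.94 in control mice and 7.74, 7.37 and 7.83 in TCE mice. Each TCE mouse was below all controls, TCE mouse 2 the farthest (change -0.45, SE 0.17, limma adjusted p = 0.242; -0.30 without TCE mouse 2). Ifi35, which binds the related protein Nmi, had signals of 10.88, 11.06 and 11.03 in control mice and 11.41, 10.86 and 11.08 in TCE mice. TCE mouse 1 stood clear of the controls and TCE mouse 2 was just below them (change 0.13, SE 0.17, limma adjusted p = 0.735), and without TCE mouse 1 the change was -0.021.

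In 3 further effectors, chosen after their values were seen, TCE mouse 1 alone was high. Xaf1, which promotes apoptosis, had signals of 7.98, 8.11 and 8.45 in control mice and 9.79, 7.97 and 8.18 in TCE mice. Ifi44 had signals of 6.61, 7.18 and 6.89 in control mice and 8.42, 6.84 and 6.66 in TCE mice. In both, TCE mice 2 and 3 were near the controls, and the changes of 0.46 and 0.41 had SEs of 0.48 and 0.47. Mx2, an antiviral GTPase, had signals of 8.69, 9.01 and 8.67 in control mice and 10.02, 8.48 and 8.67 in TCE mice. TCE mouse 1 exceeded every control by more than the controls differed among themselves (change 0.27, SE 0.41). Eif2ak2, the kinase that halts translation on double-stranded RNA, Isg20, an exonuclease, and Parp14 had changes of 0.15, 0.12 and -0.019, with overlapping groups.

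Of the interferon-inducible GTPases, 6 of 6 were detected and 0 passed the threshold by limma. At an unadjusted p under 0.05, 0 were higher and 1 was lower (16.7%), against 12.0% and 7.11% of all genes. These GTPases gather on vacuoles that hold pathogens and break them open, or regulate those that do. Igtp, a regulatory member, had signals of 12.10, 11.91 and 12.18 in control mice and 13.10, 11.41 and 11.86 in TCE mice. TCE mouse 1 was above and the other TCE mice were below all controls, and the change was 0.057 (SE 0.42, limma adjusted p = 0.962). Without TCE mouse 1 it was -0.43, and without control mouse 2 it was -0.017.

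Ifi47, another GTPase of this class, had signals of 11.20, 11.63 and 12.12 in control mice and 11.09, 10.44 and 11.03 in TCE mice. Every TCE mouse was below the lowest control, though TCE mouse 1 came close to control mouse 1, and the change was -0.80 (SE 0.28, limma adjusted p = 0.223). Leaving out 1 mouse at a time gave -1.02 to -0.56. Gbp6 had a change of -0.57 (SE 0.51) by its brighter probe and -0.017 by the other. Irgm1, Gbp2 and Gbp3 had changes of -0.28, 0.18 and 0.29, with overlapping groups.

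The rest of the interferon pathway was taken from a list of 108 further genes on the array, of which 87 were detected. By limma 0 were up-regulated and 0 down-regulated, with 13 higher (14.9%) and 7 lower (8.05%) at an unadjusted p under 0.05, against 12.0% and 7.11% of all genes. The methods' t-test without adjustment gave 1 and 0, against 2.15% and 0.949% of all genes. Of the 15 interferon genes, the ligands, 2 were detected (Ifnk and Ifnl3), and 7 were well above background in 0 mice. Of the 6 receptor chains, 5 were detected. The chains of the type I receptor, Ifnar1 and Ifnar2, had changes of 0.0086 and 0.065, and Ifngr1, of the type II receptor, -0.067. Ifngr2 had signals of 10.17, 9.96 and 10.14 in control mice and 10.39, 10.43 and 10.49 in TCE mice. The TCE mice were all above the controls, and TCE mouse 2 did not stand apart (change 0.34, SE 0.12, limma adjusted p = 0.198). Il10rb, a chain of the type III receptor, had a change of -0.38 with overlapping groups. The kinases Jak1, Jak2 and Tyk2 had changes of -0.12, -0.10 and -0.26. Of the 12 adaptors and kinases that link the sensors to interferon genes, 11 were detected, with 3 higher and 3 lower at an unadjusted limma p under 0.05 and 0 past the threshold, and of the 5 inhibitors 4 were detected, with 1 and 0.

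The 62 detected genes of this list that are themselves interferon-inducible shared the high values of TCE mouse 1 more than the low values of TCE mouse 2. TCE mouse 1 was the highest of the 6 in 39 (62.9%) and TCE mouse 2 the lowest in 16 (25.8%), about as often as control mouse 1 (17, or 27.4%). The median difference from the control mean was 0.40 in TCE mouse 1 and -0.020 in TCE mouse 2, with a median SD of 0.16 among control mice and 0.31 among TCE mice. In the 25 detected ligands, receptors, kinases, adaptors and inhibitors, TCE mouse 1 was the highest in 9 (36%). TCE mouse 2 was the lowest in 7 (28%), as often as control mouse 3. Of all genes, TCE mouse 1 was the highest in 16.8% and TCE mouse 2 the lowest in 15.0%. The median SDs of the 25 genes were 0.16 among control mice and 0.19 among TCE mice. Ifi27l2b, of the Ifi27 family of small mitochondrial proteins, had the largest fitted change of the list and is named for that. By its brighter probe it had signals of 6.91, 7.56 and 7.71 in control mice and 10.34, 8.50 and 10.32 in TCE mice. All TCE mice were above all controls, TCE mouse 2 the least, and the change of 2.33 (SE 0.53) had a limma adjusted p of 0.0984. A second probe was well above background in 0 control mice and all 3 TCE mice. It passed the detection filter through the TCE group alone, so the filter itself favoured a higher signal there, and its call is not counted above. Measured against the lowest signals well above background, it was at least 3.41-fold higher in TCE mice, and nothing is drawn from this value.

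Other cell types of the liver were followed by markers because many of them express these genes. Of 35 detected markers of 9 cell types, hepatocytes included, 27 (77.1%) were lower in TCE mice by the fitted change, against 46.9% of all genes, and 0 passed the threshold by limma with the brightest probe of each. The Cd79a probe on chromosome 12 is counted among the 8 that were higher. At an unadjusted p under 0.05, 3 (8.57%) were higher and 4 (11.4%) lower, against 12.0% and 7.11% of all genes. Of the 6 hepatocyte markers 3 were lower by the fitted change, and the groups did not overlap in Apoa1, which was lower, and Tat, which was higher (changes -0.31 and 0.36). Of the 8 markers of T or NK cells 4 were detected, and for Cd3g, Cd8a and Klrb1c 0 arrays were well above background. Their summed linear signal, led by Cd4, was 16368, 19338 and 20018 in control mice and 11313, 6064 and 15999 in TCE mice. Each TCE mouse was below every control, and TCE mouse 2, which was the lowest in most members, had the lowest sum. Most of the sum was Cd4 in every mouse, read by 1 bright probe. The other Cd4 probe was well above background on 0 arrays, so the Cd4 values rest on the bright probe alone. The groups overlapped in the other 3 detected markers, Cd3e, Nkg7 and Gzma (changes -0.63, -0.19 and -0.051). In Cd3e and Gzma the lowest mouse was TCE mouse 1 (8.52 and 6.33), not TCE mouse 2. The sum of the 5 endothelial markers, led by Clec4g, was 22846, 22399 and 22807 in control mice and 12456, 24292 and 22096 in TCE mice. TCE mouse 1, the highest in most members, had the lowest endothelial sum and the other TCE mice were near the controls. Stab2, a scavenger receptor of these cells, had log2 signals of 12.61, 12.41 and 12.31 in control mice and 11.33, 12.26 and 12.13 in TCE mice by its brightest probe. Each TCE mouse was thus below the controls, TCE mouse 1 by far the most (change -0.54, SE 0.26, limma adjusted p = 0.345). Its 2 dimmer probes overlapped between the groups (changes -0.36 and 0.050), and in the first of them TCE mouse 1 was the highest of the 6 mice, so the Stab2 probes differed. The dimmer Kdr probe was also lower in all TCE mice (change -0.47, SE 0.23, limma adjusted p = 0.346), and the brighter one overlapped. The neutrophil sum, led by S100a9, was 669, 926 and 895 in control mice and 841, 900 and 1252 in TCE mice, and Mpo and Ngp were well above background on 0 arrays. S100a8, a dimmer neutrophil marker, had log2 signals of 5.57, 6.24 and 5.96 in control mice and 6.75, 7.03 and 7.55 in TCE mice, so the groups did not overlap (change 1.19, SE 0.26, limma adjusted p = 0.0886). The groups overlapped in the other detected neutrophil markers, Ly6g and S100a9 (changes -0.017 and 0.26). The stellate cell sum, led by Rgs5, was 1228, 969 and 657 in control mice and 536, 641 and 690 in TCE mice, and the bile duct sum, led by Sox9, was 255, 242 and 160 against 208, 199 and 143. Both sums overlapped between the groups. The stellate cell marker Lrat did not, with log2 signals of 8.08, 8.56 and 7.85 in control mice and 7.01, 6.35 and 7.08 in TCE mice (change -1.35, SE 0.27, limma adjusted p = 0.0676). The part of these cell types in the ordering of the TCE mice was not tested.

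Many of the members share a promoter element. They were listed for their link to interferon, so a high share follows in part from that choice and is no separate support. The interferon-stimulated response element was searched as GAAANNGAAA, on both strands and with overlapping matches counted, in the 250 bases before to 50 bases after each gene's start (RefSeq, GRCm38.p6). Of the 41 members 33 had such a window, and Gbp6, Usp18, Mx1, Parp14, Dhx58, Mx2, Oas2 and Zbp1 did not. The motif was in 19 of the 33 (57.6%), against 3.99% of 27025 genes and 3.44% of 32851 windows. Of the other listed interferon-inducible genes 48 had a window, with the motif in 20 (41.7%), so it was not particular to the members. Among detected members with a window, it was in 12 of the 20 in which TCE mouse 1 was the highest mouse and in 5 of the 11 others. A shorter motif, TTCNNNGAA, searched in the same way, was in 10 of the 33 (30.3%) and in 9.55% of all genes. Among the 48 other interferon-inducible genes it was in 8 (16.7%). Irf5 held neither motif in its window.

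The matches of 4 members are shown with 20 bases on either side, 3 of them high in TCE mouse 1 and low in TCE mouse 2 (Isg15, Ifit1 and Igtp) and Rsad2, which was lower in all TCE mice. Capitals mark the motif, and each run is read 5′ to 3′ along the gene's own strand on GRCm38.p6. The Isg15 stretch, from the minus strand at chr4:156200855-156200916, holds 3 overlapping matches between 78 and 57 bases before the start. The Ifit1 stretch, from the plus strand at chr19:34640765-34640833, holds 2 matches on the opposite strand, between 104 and 76 bases before the start. The Igtp stretch is from the plus strand at chr11:58199502-58199551 with 1 match, 34 to 25 bases before the start. The Rsad2 stretch is from the minus strand at chr12:26456543-26456592 with 1 match on the opposite strand, 120 to 111 bases before the start.
Isg15: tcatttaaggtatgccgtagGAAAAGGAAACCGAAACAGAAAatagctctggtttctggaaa
Ifit1: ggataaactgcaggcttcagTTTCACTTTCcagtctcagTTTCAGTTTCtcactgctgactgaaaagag
Igtp: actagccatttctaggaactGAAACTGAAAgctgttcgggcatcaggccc
Rsad2: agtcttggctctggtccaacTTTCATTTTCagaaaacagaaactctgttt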

How the data were processed

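Per the file headers, gProcessedSignal is the intensity of a Cy3-labelled spot after Agilent Feature Extraction 10.7.1.1 subtracted the background; the deposited flags give whether a spot was well above background, saturated or an outlier. The authors also deposited log2 means per group after quantile normalization, and all 52 member probes had recomputed means within 0.01 of them. The 6 per-sample detection-flag columns of that table were not used. Control spots and outlier spots were left out, spots of a probe were averaged, and log2 intensities were quantile normalized. Limma 3.58.1 (R 4.3.3) was fitted over all 22731 detected probes, without a block, two-sided, with Benjamini-Hochberg adjustment, and was tested on simulated data; the detected probe with the highest mean stood for a gene. Promoter windows were searched with pandas 2.3.3 (Python 3.11.15), and figures drawn with matplotlib 3.10.9. Per-mouse values were given for members past the threshold or with an unadjusted p under 0.05 and for the 2 brightest of each role, others as said in the text. The members and lists were chosen with earlier results of these data known. Of the listed genes 12 had no symbol on the array. Replicates were separate mice, 3 per group. The B cell marker sum and 1 pathway gene are not reported here.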

Additional observations from a re-analysis of the deposited data

How the results depend on the processing

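The alternatives were scaling to the 75th percentile, normexp background correction, no filter on dim probes, detection on all 6 arrays, outlier spots kept, the replicate number or the slide as a block, a trended robust variance, the methods' t-test, no fold limit, the mean of or any of a gene's probes, and leaving out each mouse. Members up-regulated stayed at 0 throughout. Members down-regulated were 0 instead of 1 without the filter, with the slide as a block, by the t-test after Benjamini-Hochberg adjustment and without any 1 mouse (range 0 to 0); the Irf5 adjusted p was then 0.165, 0.138, 0.140 and 0.0505 to 0.163. Replicate numbers did not pair the mice: deviations from the group means of same-numbered mice correlated at 0.090, 0.0066 and -0.092, and with the replicate block members down-regulated were 0 (Irf5 adjusted p = 0.144) and genes past the threshold fell from 173 higher and 57 lower to 40 and 5. The median change of the members was 0.037 to 0.088 under the other settings and -0.25 to 0.19 with a mouse left out. Pathway genes up-regulated were 1 (Ifi27l2b) with any probe, the mean of the probes or the unadjusted t-test, and 0 to 1 with a mouse left out, 1 without TCE mouse 2. The first 2 of these calls use its dimmer probe, which was detected through TCE mice alone.

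Among the 16 members followed under each setting, changes that turned sign, all far from the threshold, were Ddx58 (0.036 for the mean of its probes), Ifih1 (0.12 without TCE mouse 2), Usp18 (0.032 without control mouse 2), Igtp (-0.017 without control mouse 2), and without TCE mouse 1 Igtp (-0.43), Isg15 (-0.41), Oas1a (-0.31) and Ifi35 (-0.021). The leave-one-out ranges were -0.30 to -0.068 (Ddx58), -0.34 to 0.12 (Ifih1), -0.48 to 0.032 (Usp18), -0.43 to 0.42 (Igtp), -0.41 to 0.53 (Isg15), -0.31 to 0.37 (Oas1a) and -0.021 to 0.26 (Ifi35). The causes were not tested. Of all 38 detected members the sign turned in 14 (36.8%) without TCE mouse 1, Irf7, Dhx58, Mx2, Xaf1 and Ifi44 among them, against 10% of all genes, and in 1 to 3 without any other mouse. TCE mouse 1 was the highest in 24 or 25 members and TCE mouse 2 the lowest in 15 to 21 under the scaling, background and outlier settings, and without the filter in 28 and 21 of 41. Sign turns in all members and these orderings were counted after seeing the data.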
